A study of Mus musculus with 6 samples.

Results

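The 10 haematopoietic progenitor transcription factors described here are Myb, Sox4, Meis1, Lmo2, Erg, Hlf, Tal1, Gfi1, Cebpa and Cebpb. They were chosen by gene symbol: every array probe that the platform annotation gives to a member, or that carries its current symbol through the Entrez identifier, was taken. This gave 16 of 45281 probes, and 8 of the 10 genes had a probe bright enough to be tested among 9561 genes in all.

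The samples were 3 arrays of CCR9+ plasmacytoid dendritic cells (pDCs), the interferon-producing dendritic cells that carry the chemokine receptor CCR9, and 3 arrays of CCR9- pDC-like precursors. All came from bone marrow of C57BL/6 females aged 7 weeks, with no treatment named in the labels, and RNA of each isolation was hybridised to its own single-colour Illumina BeadChip. The series describes the precursors as common dendritic cell progenitors and each array as a separate isolation; pooling of mice is not mentioned there, and of the sort only CCR9 is named. Because each array measured sorted cells in bulk, fewer cells of a type and less RNA per cell cannot be told apart.

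Stem and progenitor cells of the blood are held in their state by transcription factors that work in overlapping complexes. TAL1, a basic helix-loop-helix protein, and LMO2, a bridging protein without DNA binding of its own, share a complex with GATA2, RUNX1, LYL1, FLI1 and ERG. MEIS1 is a homeodomain cofactor of PBX and HOX proteins, MYB keeps progenitors dividing, and HLF marks stem cells. SOX4 is an HMG-box factor of lymphoid progenitors. GFI1 is a zinc-finger repressor that recruits the demethylase KDM1A, and C/EBPα and C/EBPβ are basic leucine zipper factors of the granulocyte and monocyte lineages.

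Signals are given as log2 of the background-corrected and quantile-normalized intensity. A difference is the CCR9+ pDC mean minus the CCR9- precursor mean on this scale, and it is called when its limma p-value, adjusted over all 9561 genes with the Benjamini-Hochberg method, is below 0.05. A probe is above background on an array when its detection p-value is below 0.05. The arrays had 15254 to 16905 probes above background, and CCR9+ pDC replicate 3 had the fewest. Of 15 pDC marker genes, 13 were tested, and Siglech, Tcf4 and Irf8 were above background on all 6 arrays. Of the 13, 5 were called higher in CCR9+ pDCs, 1 lower and 7 were not called, with a median difference of 0.31. Over all tested genes 17.6% were called higher and 18.2% lower. No array had the Ccr9 probe above background (lowest detection value 0.0919), so that gene does not check the labels.

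The comparison asks which of these factors differ between the differentiated pDCs and the precursors, and they moved in both directions. Sox4, Myb and Meis1 were lower in CCR9+ pDCs, and Cebpb, Gfi1 and Lmo2 were higher. Tal1 and Hlf were tested and did not pass, and Erg and Cebpa were not above background on any array. The 3 members called higher compare with 17.6% of all tested genes called in that direction, and the 3 called lower with 18.2%. The median difference of the 8 tested members was 0.34, beside -0.02 over all genes tested. In all 6 of the 8 were called, beside 35.8% of all tested genes. The groups did not overlap for the same 6, where 50.9% of all tested genes did not overlap (24.2% higher and 26.7% lower in CCR9+ pDCs).

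**Figure D1:**
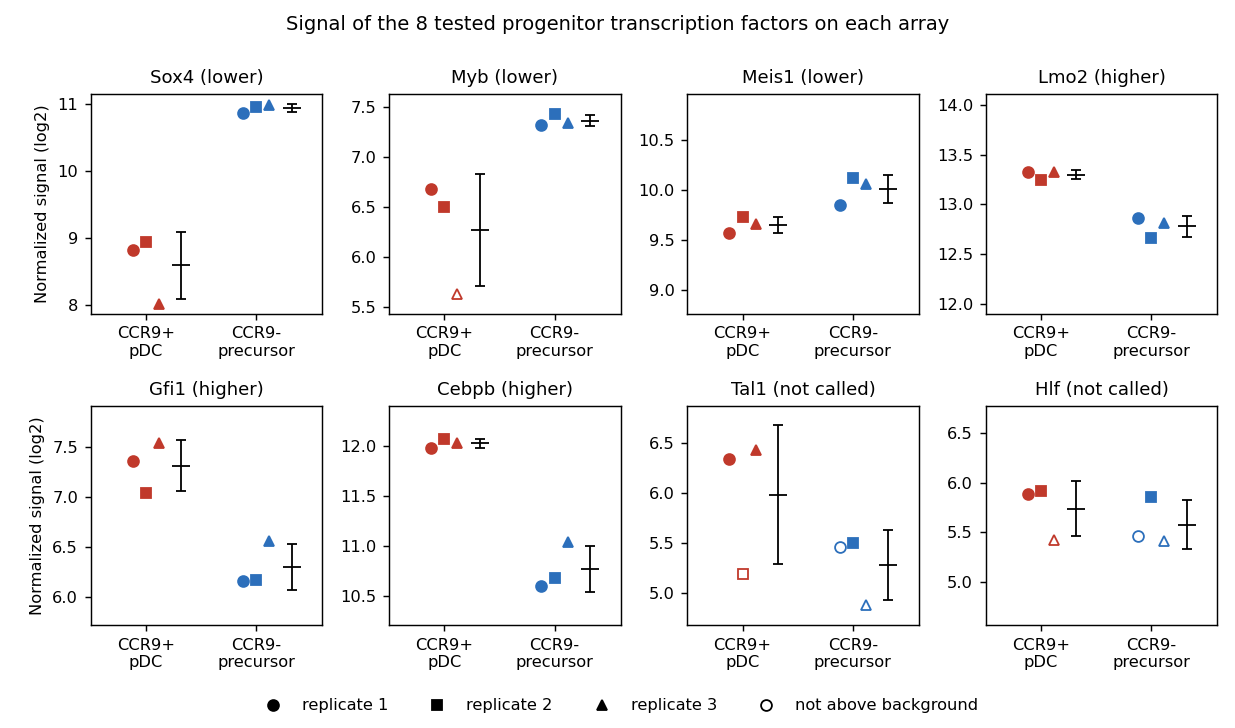
Normalized signal (log2) of the 8 tested members on each of the 6 arrays, with the group mean and SD (n = 3) as a bar beside the points and open symbols where the probe was not above background; the y axes differ between panels. Sox4, Myb and Meis1 sit lower on every CCR9+ pDC array than on any precursor array, Lmo2, Gfi1 and Cebpb sit higher, and Tal1 and Hlf overlap.

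Sox4 had the largest difference of the members. Its signal was 8.82, 8.94 and 8.02 on the CCR9+ pDC arrays, against 10.86, 10.95 and 10.98 on the precursor arrays. The precursor arrays lay within 0.12 of each other, CCR9+ pDC replicate 3 was the lowest array, and the groups were 1.92 apart at their nearest arrays. The fitted difference was -2.34 ± 0.24 (SE, n = 3 each; 95% interval -2.91 to -1.76), so Sox4 was 5.05-fold lower in CCR9+ pDCs (limma adjusted p = 0.000461). Only 2.44% of tested genes had a larger absolute difference. The difference was -2.04 without CCR9+ pDC replicate 3 and remained called under all 18 processing alternatives. Another Sox4 probe was not above background on any array.

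Myb was dim. Its signal was 6.68, 6.51 and 5.63 on the CCR9+ pDC arrays, against 7.33, 7.43 and 7.34 on the precursor arrays. The groups did not overlap, and the spread lay in the CCR9+ pDC group, where replicate 3 was again the lowest and was not above background (detection value 0.0513). Myb was 2.13-fold lower in CCR9+ pDCs, at a difference of -1.09 ± 0.27 (SE, n = 3 each; limma adjusted p = 0.0192). The difference was -0.79 without that array (adjusted p = 0.00217), and on the authors' processed values it was -0.45 and with uncorrected background -0.50, both still called. The call was lost when precursor replicate 1, 2 or 3 was left out (adjusted p = 0.0544, 0.0659 and 0.0564). Of the other Myb probes, 1 was above background on 1 array only and 1 on none.

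Meis1 was lower by a small amount. Its brighter probe gave 9.57, 9.73 and 9.66 on the CCR9+ pDC arrays, against 9.85, 10.12 and 10.06 on the precursor arrays. The groups did not overlap, but the gap between the nearest arrays was 0.12. The difference was -0.36 ± 0.11 (SE, n = 3 each), or 1.28-fold lower in CCR9+ pDCs (limma adjusted p = 0.0418). A second Meis1 probe, also above background on all 6 arrays, gave 7.50 ± 0.18 in CCR9+ pDCs and 7.59 ± 0.11 in precursors (SD, n = 3 each). That probe did not pass in a limma fit over every kept probe (difference -0.10, 95% interval -0.41 to 0.21, adjusted p = 0.625), and its groups overlapped. The brighter probe did not pass in that fit either (difference -0.36, adjusted p = 0.0581). In that fit 29.3% of all kept probes were called, 13.7% higher and 15.6% lower in CCR9+ pDCs. The mean of both probes did not pass (-0.23, adjusted p = 0.133). Leaving out any 1 array except precursor replicate 1 ended the Meis1 call (adjusted p = 0.102, 0.0715 and 0.0611 without CCR9+ pDC replicates 1, 2 and 3, and 0.141 and 0.121 without precursor replicates 2 and 3). In all it was called under 8 of 18 alternatives, with a difference of -0.62 under median scaling.

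The promoter windows of the 3 members that were lower in CCR9+ pDCs are shown because they hold letters bound by other factors of the group. Each runs from 250 bases before to 50 bases after the transcription start, on the gene's strand, from RefSeq with build GRCm38.p6. The Sox4 window is chr13:28953650-28953949 on the minus strand, the Myb window chr10:21160935-21161234 on the minus strand and the Meis1 window chr11:19018920-19019219 on the minus strand. Capitals mark AAATC, the core of the GFI1 motif, or its reverse complement in the Sox4 and Myb windows, and TAACNG, a MYB motif, or its reverse complement in the Meis1 window.
Sox4: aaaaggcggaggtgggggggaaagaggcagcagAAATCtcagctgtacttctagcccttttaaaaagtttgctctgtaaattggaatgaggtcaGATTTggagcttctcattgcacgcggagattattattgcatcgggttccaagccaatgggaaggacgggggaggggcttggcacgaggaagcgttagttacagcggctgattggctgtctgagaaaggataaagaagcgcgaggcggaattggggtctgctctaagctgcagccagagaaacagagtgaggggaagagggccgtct
Myb: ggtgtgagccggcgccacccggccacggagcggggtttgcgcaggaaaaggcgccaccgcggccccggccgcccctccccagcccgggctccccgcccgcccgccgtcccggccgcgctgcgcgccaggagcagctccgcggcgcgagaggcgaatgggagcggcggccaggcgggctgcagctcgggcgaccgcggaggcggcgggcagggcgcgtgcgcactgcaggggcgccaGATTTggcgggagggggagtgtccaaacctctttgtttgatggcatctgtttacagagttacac
Meis1: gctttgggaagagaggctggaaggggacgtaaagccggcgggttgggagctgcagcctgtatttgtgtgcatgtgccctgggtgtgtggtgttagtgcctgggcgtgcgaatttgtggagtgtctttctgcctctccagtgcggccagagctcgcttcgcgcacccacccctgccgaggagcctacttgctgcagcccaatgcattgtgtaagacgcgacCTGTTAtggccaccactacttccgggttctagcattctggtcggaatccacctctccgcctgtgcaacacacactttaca
The GFI1 core occurred 2 times in the Sox4 window and 1 time in the Myb window. On either strand, 35.9% of all 32851 RefSeq promoter windows hold it, and it was in 5 of the 13 windows of the 9 members that have one. These were the windows of Sox4, Myb, Hlf, 1 Erg start and 1 Tal1 start, and the Meis1 window did not hold it. Hlf and Tal1 were not called and Erg was not tested, so the core was not limited to members lower in CCR9+ pDCs. The MYB motif was in 2 of the 13 windows, those of Meis1 and of 1 Erg start, and in 23.3% of all windows. The letters ACAAAG or ACAATG, which SOX proteins bind, were in 3 of the 13 windows, those of Myb, Meis1 and 1 Erg start, and in 28.6% of all windows. Apart from the short cores named last, none of these matches in the 3 windows shown overlapped another motif searched. The C/EBP palindrome TTGCGCAA was in none of the 13 windows and in 0.183% of all windows. These shares are a description of the letters, and binding was not measured. The other motifs searched were the E-box CANNTG (9 of 13 windows, 72.3% of all), GATAAG (1 of 13, 7.44%), TGACAG (1 of 13, 19.2%), the ETS motif CCGGAA (3 of 13, 14.9%) and TTACGTAA (0 of 13, 0.119%). The cores AACNG, part of TAACNG, and GGAA, part of CCGGAA, were in 12 and 13 of the 13 windows and in 80.3% and 96.0% of all. All motifs were searched on both strands.

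Cebpb was the member with the largest increase. C/EBPβ drives stress-induced granulocyte production and macrophage genes. Its signal was 11.99, 12.08 and 12.04 on the CCR9+ pDC arrays, against 10.61, 10.68 and 11.04 on the precursor arrays. The CCR9+ pDC arrays lay within 0.09 of each other, and the highest precursor array, replicate 3, was 0.95 below the lowest of them. Cebpb was 2.39-fold higher in CCR9+ pDCs, at a difference of 1.26 ± 0.13 (SE, n = 3 each; limma adjusted p = 0.000531), and was called under all 18 alternatives with differences of 1.02 to 1.39.

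Gfi1, the repressor needed for neutrophil production, was dim but above background on all 6 arrays. Its signal was 7.36, 7.04 and 7.54 on the CCR9+ pDC arrays, against 6.15, 6.17 and 6.56 on the precursor arrays. The groups did not overlap, with a gap of 0.48 between the nearest arrays. Gfi1 was 2.02-fold higher in CCR9+ pDCs, at 1.02 ± 0.17 (SE, n = 3 each; limma adjusted p = 0.00449). Its call held under all 18 alternatives, but the size depended on the background: it was 0.50 on the authors' processed values and 0.48 with uncorrected background.

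Lmo2 was bright in both groups. Its signal was 13.32, 13.24 and 13.33 on the CCR9+ pDC arrays, against 12.86, 12.66 and 12.82 on the precursor arrays. Every CCR9+ pDC array was higher than every precursor array, with 0.38 between the nearest. Lmo2 was 1.43-fold higher in CCR9+ pDCs (difference 0.52 ± 0.10, SE, n = 3 each; limma adjusted p = 0.00633). The call was lost under median scaling, where the difference was 0.35 (adjusted p = 0.118) and the median of all genes shifted to -0.19.

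Tal1, whose product binds DNA beside LMO2, gave 6.33, 5.18 and 6.43 on the CCR9+ pDC arrays, against 5.46, 5.50 and 4.87 on the precursor arrays. It was above background on 2 CCR9+ pDC arrays and 1 precursor array, and the groups overlapped through CCR9+ pDC replicate 2. The difference of 0.70 had a 95% interval of -0.15 to 1.56 and did not pass (limma adjusted p = 0.177), and without CCR9+ pDC replicate 2 it was 1.10 (adjusted p = 0.0154). It was 0.25 both with uncorrected background (adjusted p = 0.152) and on the authors' processed values (0.148), and 0.30 without both arrays numbered 3 (0.614). Hlf was above background on 2 CCR9+ pDC arrays and 1 precursor array. Its signal was 5.88, 5.91 and 5.42 in CCR9+ pDCs, against 5.46, 5.86 and 5.41 in precursors. The groups overlapped, and the difference of 0.16 (95% interval -0.28 to 0.60; limma adjusted p = 0.533) leaves room for a change in either direction. Neither of the Erg probes (lowest detection values 0.12 and 0.262) nor the Cebpa probe (0.0641) was above background on any array. A difference in these genes was not detectable at this signal.

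**Figure D2:**
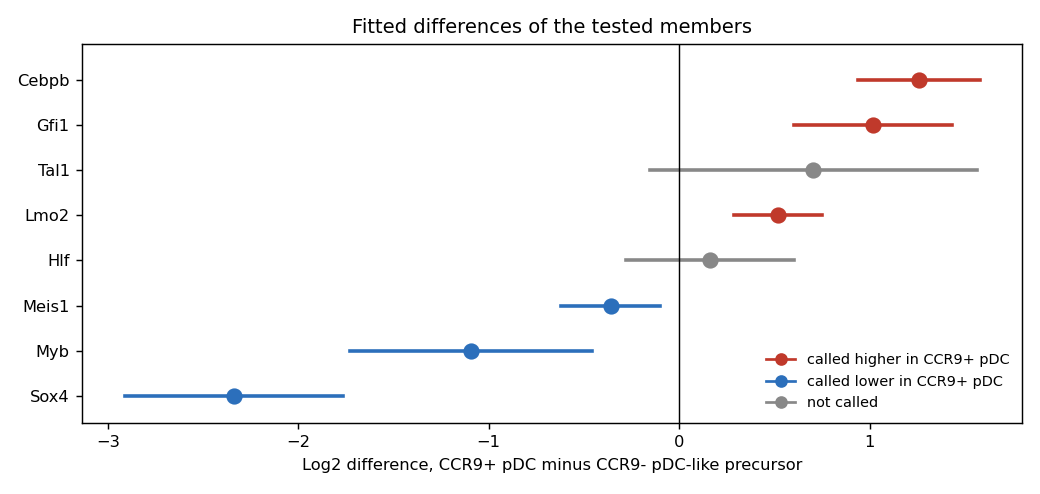
Fitted log2 difference of each tested member, CCR9+ pDC minus CCR9- pDC-like precursor, with its 95% interval from limma (n = 3 arrays each); colours mark genes called higher, called lower or not called. The intervals of Cebpb, Gfi1 and Lmo2 lie above 0, those of Meis1, Myb and Sox4 below 0, and those of Tal1 and Hlf span 0.

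Genes whose signal followed a called member most closely over the 6 arrays were found by the root mean square difference of centred log2 values. For Sox4 these were Kif23, a mitotic kinesin gene, Cenpk, a kinetochore gene, and Recql4, a helicase gene (0.108, 0.114 and 0.129). For Myb they were Rnaseh2c, Enkd1 and Spn (0.07, 0.078 and 0.0938). For Meis1 they were Acss1, Metap2 and Smarcd2, a chromatin remodelling subunit gene (0.0269 to 0.0461). For Cebpb they were Hdc, the histamine-producing decarboxylase gene of basophils, Naip5, an inflammasome sensor gene, and Gca (0.076 to 0.0801). For Gfi1 they were Cldn15, Anxa9 and Itpr3 (0.0563 to 0.0753), and for Lmo2 they were Mindy1, Stxbp2 and Ginm1 (0.0396 to 0.0417). The 6 arrays fall into 2 groups, so a shared group difference weighs heavily in this measure.

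The partner lists held 50 further genes, which were partners of the members, their relatives and other genes linked to them. Of the 50, 46 had a named probe and 36 were tested. Of these 36, 7 were higher in CCR9+ pDCs, 9 were lower and 20 did not pass, with a median difference of -0.15. Over all tested genes 17.6% were higher and 18.2% lower.

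In the TAL1 and LMO2 complex list 1 of 8 tested genes was higher and 3 were lower, with a median of -0.28. Gata2, whose protein binds DNA within the complex, gave 9.51, 9.11 and 9.08 in CCR9+ pDCs, against 7.04, 6.79 and 6.35 in precursors. It was 5.67-fold higher in CCR9+ pDCs (difference 2.50 ± 0.21, SE, n = 3 each; limma adjusted p = 0.000177), and its groups were far apart. Runx1, a core binding factor of stem cell emergence, gave 7.37, 7.13 and 6.26 in CCR9+ pDCs, against 9.04, 8.64 and 8.76 in precursors, and was 3.71-fold lower (adjusted p = 0.00275). Both genes were called under all 18 alternatives, but on the authors' processed values the Gata2 difference was 1.66 and the Runx1 difference -1.14, beside -1.89, and with uncorrected background they were 1.64 and -1.20. Its partner gene Cbfb was 1.86-fold lower (12.60 ± 0.035 in CCR9+ pDCs and 13.50 ± 0.11 in precursors, SD, n = 3 each; adjusted p = 0.00054). Lmo4, a relative of Lmo2, was lower by 0.32 on the log2 scale (adjusted p = 0.0262). Its call was lost under 11 of 18 alternatives, among them leaving out any 1 array except CCR9+ pDC replicate 3 (adjusted p from 0.0596 to 0.0956) and the authors' processed values (-0.13, adjusted p = 0.174), and under median scaling it differed by -0.49. Lyl1, the nearest relative of Tal1, differed by -0.25 (adjusted p = 0.239), the adaptor gene Ldb1 by -0.11 (0.399), the E protein gene Tcf12 by 0.00 (0.997) and the ETS factor gene Fli1 by -0.73 (0.312), where CCR9+ pDC arrays spread widely (SD 1.11). No probe of Tcf3 was kept. Gata1, the erythroid factor gene, was not above background on any array.

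In the MEIS, PBX and HOX list 2 of 8 tested genes were higher and 2 lower, with a median of -0.20. Without CCR9+ pDC replicate 3 the median was 0.07, and without both arrays numbered 3 it was 0.03. Meis2, a close relative of Meis1, was above background on all 3 CCR9+ pDC arrays and on no precursor array, so it was at least 1.29-fold higher in CCR9+ pDCs with the background model used here (limma adjusted p = 0.0287). The fitted difference of 0.79 was 0.45 with offset 50, 0.28 with uncorrected background and 0.26 on the authors' processed values, the last 2 being smaller than that bound. It passed the filter on dim probes through the CCR9+ pDC arrays alone, and its call was lost without any 1 precursor array (adjusted p = 0.0792, 0.0835 and 0.0778). Hoxa5 was 1.69-fold higher (adjusted p = 0.0427) and was called under 11 of 18 alternatives, with the call lost without CCR9+ pDC replicate 2 (0.0697) or any 1 precursor array (0.131, 0.0842 and 0.0802). Hoxa9, the HOX partner of MEIS1 in stem cells and leukaemia, was above background on 2 CCR9+ pDC arrays and 3 precursor arrays and was 1.56-fold lower (adjusted p = 0.0372). Its call held under 9 of 18 alternatives and was lost when CCR9+ pDC replicate 2 or 3 (0.106 and 0.0653) or any 1 precursor array (0.0985, 0.118 and 0.0773) was left out; the difference was -0.23 with uncorrected background (0.0508) and -0.20 on the authors' processed values (0.0912). A second kept Hoxa9 probe differed by -0.61 and did not pass over every kept probe (adjusted p = 0.0582), and a further Hoxa9 probe was not above background on any array. Pknox1, another TALE cofactor gene, was 1.28-fold lower (adjusted p = 0.028). It was called under 9 of 18 alternatives and lost without CCR9+ pDC replicate 1 or 2 (0.0722 and 0.0667) or any 1 precursor array (0.0646, 0.0851 and 0.0946), and its difference was -0.21 on the authors' processed values, -0.23 with uncorrected background and -0.56 under median scaling, beside -0.35. Pbx2 differed by -0.24 (adjusted p = 0.468) by its representing probe. Its other kept probes differed by 0.05 and 0.32 and did not pass over every kept probe (limma adjusted p = 0.843 and 0.296). No Pbx3 probe was above background.

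Among MYB relatives and coactivators 1 of 6 tested genes was called. Mybl2, which encodes the cell cycle factor B-MYB, gave 7.81, 7.70 and 7.46 in CCR9+ pDCs, against 10.16, 10.07 and 9.90 in precursors. It was 5.23-fold lower in CCR9+ pDCs (limma adjusted p = 2.93e-05). The coactivator genes Crebbp and Ep300 differed by -0.52 (adjusted p = 0.313) and 0.08 (0.691). Other kept Ep300 probes differed by -0.37 and 0.03 and did not pass over every kept probe (0.365 and 0.963). Of 13 reported MYB targets only 4 were tested: Bcl2, a survival gene, was 12.2-fold lower in CCR9+ pDCs (adjusted p = 2.99e-06) and Kit, the stem cell factor receptor gene, 1.87-fold lower (0.00673), while Cd34 (0.659) and Ada (0.944) did not pass.

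Among the GFI1 corepressors 1 of 4 tested genes was lower and none higher. Hdac2, a histone deacetylase gene, gave 10.85 ± 0.13 in CCR9+ pDCs and 11.59 ± 0.07 in precursors (SD, n = 3 each) and was 1.66-fold lower (limma adjusted p = 0.002). Kdm1a and the CoREST gene Rcor1 differed by -0.21 (adjusted p = 0.15) and -0.33 (0.0586). A second kept Rcor1 probe differed by -1.13 and did not pass over every kept probe (0.146). No probe of Gfi1b, the erythroid and platelet relative, was kept. Of 7 tested genes reported to be repressed by GFI1, 1 was higher in CCR9+ pDCs (Id2, 2.44-fold, adjusted p = 0.0443). The already described Meis1 and Hoxa9 were the 2 lower. These counts stand beside 17.6% higher and 18.2% lower over all tested genes. No gene of this list was called with no filter on dim probes, or without CCR9+ pDC replicate 2 or precursor replicate 2 or 3. The Id2 call held under 9 of 18 alternatives and was lost without CCR9+ pDC replicate 1 or 2 (0.117 and 0.12) or any 1 precursor array (0.0794, 0.127 and 0.116); its difference of 1.28 was 0.78 with uncorrected background and 0.81 on the authors' processed values.

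The C/EBP family split by member. Cebpe, the factor of late granulocyte maturation, gave 9.46, 8.98 and 9.03 in CCR9+ pDCs, against 7.73, 7.56 and 8.01 in precursors. It was 2.62-fold higher in CCR9+ pDCs (limma adjusted p = 0.00119), and a second probe gave a difference of 1.68 (adjusted p = 0.00254 over every kept probe). Cebpd went the other way, at 9.10 ± 0.16 in CCR9+ pDCs and 9.77 ± 0.11 in precursors (SD, n = 3 each), 1.58-fold lower (adjusted p = 0.00546). Cebpg, which encodes a short C/EBP protein, differed by -0.23 (0.108) and Ddit3, a stress-induced member, by 0.35 (0.136). Trib1, whose product targets C/EBPα for degradation, gave 10.55, 10.41 and 8.48 in CCR9+ pDCs, against 7.39, 8.08 and 7.89 in precursors, and was 4.08-fold higher (adjusted p = 0.0283). CCR9+ pDC replicate 3 was the lowest of its group. The Trib1 call was lost without CCR9+ pDC replicate 1 or 2 (0.0753 and 0.0863) or any 1 precursor array (0.092, 0.0634 and 0.0731), and with an intensity trend and robust prior (0.079).

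**Figure D3:**
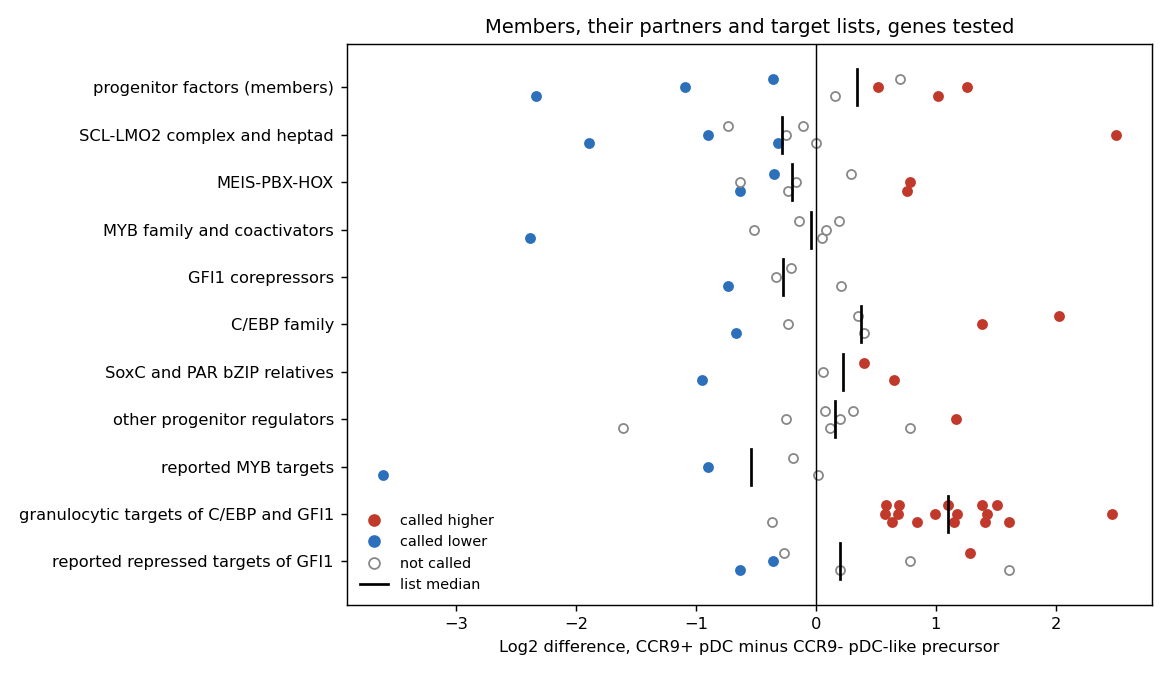
Log2 difference, CCR9+ pDC minus CCR9- pDC-like precursor, of every tested gene of the members and of their partner and target lists, 1 row per list and 1 point per gene, with the list median as a black line and colours for genes called higher, called lower or not called. In the granulocytic target list 16 of 17 points are called higher, while the members and their partner lists hold calls in both directions or only a single call.

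Among relatives of the remaining members, the PAR bZIP genes Dbp and Tef, which are kin of Hlf and follow the circadian clock, were higher in CCR9+ pDCs by 0.65 and 0.40 on the log2 scale (limma adjusted p = 0.0034 and 0.0337). Both were lost under median scaling (adjusted p = 0.119 and 0.435). The Tef call was also lost without CCR9+ pDC replicate 1 or 2 (0.0511 and 0.102) or precursor replicate 2 or 3 (0.12 and 0.103), and it held under 9 of 18 alternatives in all. Under median scaling the differences were 0.40 for Dbp and 0.21 for Tef, and Tef was at 0.22 with uncorrected background and 0.24 on the authors' processed values. Sox12, of the same subgroup as Sox4, was lower by 0.95 on the log2 scale by its brightest probe (adjusted p = 0.0267). A second kept Sox12 probe did not move with it (difference 0.13, adjusted p = 0.748 over every kept probe), and the call was lost without any 1 precursor array (0.898, at a difference of 0.07, without replicate 1, where the second probe was the brighter, then 0.0724 and 0.08). The Sox12 difference was -0.41 with the mean of its kept probes, -0.37 with uncorrected background and -0.34 on the authors' processed values. Sox11 differed by 0.06 (0.819). Of 8 tested genes among 18 other progenitor regulators, only Nfe2, a factor of platelets and red cells, was called, at 9.70 ± 0.11 in CCR9+ pDCs and 8.54 ± 0.07 in precursors (SD, n = 3 each; 2.25-fold higher, adjusted p = 0.000197).

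The list of granulocytic genes linked to C/EBP factors and GFI1 moved mostly in 1 direction. It was chosen with earlier results of these data known, so its counts describe the list and do not test control by these factors. Of 17 tested, 16 were called higher and none lower, beside 17.6% and 18.2% of all tested genes. The median difference was 1.10, beside -0.02 for all genes. Between 13 and 16 were called under the alternatives run. Lyz2, the lysozyme gene, gave 13.53, 13.14 and 13.21 in CCR9+ pDCs, against 10.76, 10.68 and 11.02 in precursors, and was 5.54-fold higher (limma adjusted p = 4.39e-05). The ficolin gene Fcnb was 3.06-fold higher and the chitinase-like gene Chil3 2.85-fold. Lcn2, a granule lipocalin gene, was 2.69-fold higher, and the Fcnb difference of 1.61 was 1.03 with uncorrected background and 1.04 on the authors' processed values. Il6ra differed by -0.37 (adjusted p = 0.292).

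Of the 17 tested granulocytic genes, 11 stand in a marker list, 9 of them in that of neutrophils, and of the 6 outside every marker list 5 were higher. Those 6 are Csf2ra, Ctsg, Il6ra, Cebpe, Fcnb and Chil3, so the Cebpe described above is counted again here. All were listed as granulocytic genes, so this split does not set their rise apart from that of the neutrophil markers. Neutrophil markers were higher in CCR9+ pDCs for 11 of 12 tested (7 under median scaling), with a summed linear signal of 105135 to 120438, against 53201 to 62874 in precursors, and Mmp8 was not above background. Monocyte and macrophage markers were higher for 11 of 12, with sums of 33268 to 42223 in CCR9+ pDCs, against 3098 to 3742 in precursors, and Cd5l was not above background. Basophil and mast cell markers, a list that holds Gata2, were higher for 7 of 7, with sums of 5618 to 7469, against 1897 to 2494 in precursors, and the mast cell protease genes Mcpt1, Mcpt4 and Cma1 were not above background. Erythroid markers were higher for 3 of 5, and for 2 to 4 under the alternatives run. Their sums of 32433 to 59478 in CCR9+ pDCs overlapped with the 25505 to 37885 in precursors. Megakaryocyte and platelet markers were higher for 1 of 4 tested, with a median difference of 0.12. Conventional dendritic cell markers were higher for 5 of 9 tested and lower for 2, with a median difference of 0.99. B lineage markers were higher for 2 of 6 and T and NK markers for 2 of 3, with none lower. Beside these counts, 17.6% of all tested genes were called higher and 18.2% lower. Markers of several lineages thus moved in the direction of Cebpb, Cebpe, Gfi1, Gata2 and Nfe2, and not only those of granulocytes and monocytes. The part of any of the marker lists in those differences was not tested.

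**Figure D4:**
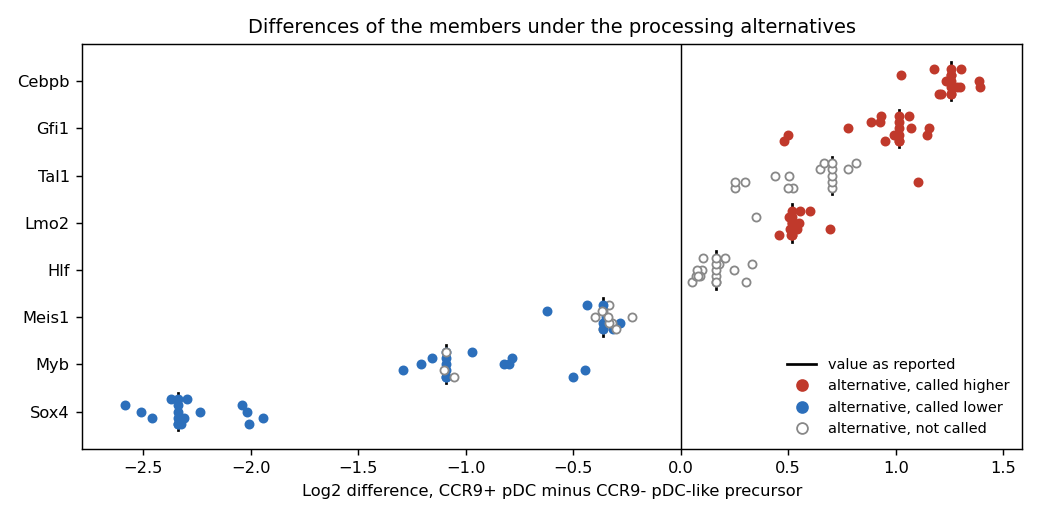
Log2 difference of each tested member, CCR9+ pDC minus CCR9- pDC-like precursor, as reported (black line) and under each processing alternative (points), with open points where the gene was not called. Sox4, Gfi1 and Cebpb stay called under all 18 alternatives, Lmo2 under 17, Myb under 15 and Meis1 under 8.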

How the data were processed

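RNA from 6 sorted bone marrow samples, 3 per group by their titles, was measured on single-colour Illumina arrays. The authors deposited a non-normalized linear intensity and a detection p-value for each of 45281 probes per array, per the file headers, and a processed value table of linear intensity whose normalization the labels do not state. BeadStudio and lumi are named in the submitters' processing notes. Array medians were 135.9 to 163.6; signal over background and 3 arrays per group limit precision.

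From the deposited intensities, background was corrected with limma's neqc model from the detection p-values (offset 16), followed by quantile normalization and log2, in R 4.3.3 with limma 3.58.1. Kept probes had detection p-values below 0.05 on 3 or more of the 6 arrays (16857, of which 14282 had 1 symbol). The brightest kept probe stood for a gene. All fitted values and adjusted p-values are from limma's lmFit and eBayes over 9561 genes, or over all kept probes where stated. No labels tie isolations to animals, so p-values measure the spread between these isolations. "At least" folds set the brighter group's mean against the dimmer group's mean of the higher of each array's lowest detected signal and the probe's own. Summed signals are linear, with the offset included.

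The members and lists were chosen with earlier results of these data known. Named were the members, their direct partners, up to 4 called genes per list and direction, and the 3 nearest profiles; Sox11, Cd34, Ada and Il6ra were named after their values were seen. The fit was tested on simulated data. Symbols came from the platform annotation (34885 probes with 1 symbol, 18 with several, 10378 with none), updated for 34807 probes through RefSeq's gene table of GRCm38.p6.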

Additional observations from a re-analysis of the deposited data

How the results depend on the processing

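The 6 member calls were recomputed under 11 planned settings, by leaving out each array in turn, and without both arrays numbered 3, a setting chosen after seeing the data. No tested member changed direction under any of these 18 alternatives (17 for Tal1, which the stricter filter removed). The count of members called lower, 3, fell to 1 without precursor replicate 2 or 3, where Sox4 alone was called, and ranged from 1 to 2 with 1 array left out; in each case fewer arrays entered the fit. The count called higher was 3, ranged from 3 to 4 with 1 array left out, and was 2 under median scaling. Over all genes 3420 were called, and 2444 to 3530 with 1 array left out. Under median scaling the calls of all genes split into 986 higher and 2124 lower (31.7% higher, beside 49.2%), and their median was -0.19. Besides the lost calls given with it above, Meis1 lost its call under cyclic loess (adjusted p = 0.0552), with no filter on dim probes (0.0714) and without both arrays numbered 3 (0.138); the cause was not tested. Deviations of same-numbered arrays of the groups had r = 0.35, 0.04 and 0.24, against -0.30 to 0.06 for arrays with different numbers. Numbers 1 and 3 thus lay above that range and number 2 within it. No labels tie the arrays to each other, so the main fit does not treat the numbers as pairs. With the replicate number as a replicate block, 3 members were called higher, 3 lower and 3361 genes in all. Without a filter, Erg differed by 0.03 (adjusted p = 0.943) and Cebpa by -0.23 (0.374), from signals not above background.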

Other observations

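Surface receptors of stem and progenitor cells also moved in both directions. Of 8 tested, 3 were higher and 4 lower in CCR9+ pDCs, beside 17.6% and 18.2% of all tested genes. Kit, described above, was among those lower. Cd27, a costimulatory receptor gene of early progenitors, was 7.89-fold lower in CCR9+ pDCs (limma adjusted p = 1.56e-05), Cd93 3.39-fold lower (0.00146) and Cd48 2.06-fold lower (0.00179). The growth factor receptor genes Csf1r (2.34-fold, 0.00281), Csf3r (2.23-fold, 0.00301) and Il7r (1.55-fold, 0.00352) were higher. Of these, Csf1r is also counted in the monocyte and macrophage marker list and Csf3r in the granulocytic target list. The Csf1r call was lost with the mean of its kept probes (difference 0.71, adjusted p = 0.0668, beside 1.23) and the Il7r call under median scaling (0.42, 0.0543, beside 0.63), so that 2 were higher under each of these settings. With the mean of its kept probes Il7r differed by 0.39. The Cd48 difference was -0.40 on the authors' processed values and -0.44 with uncorrected background, beside -1.04, and remained called. Flt3, Procr and Slamf1 were not above background on any array.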
